A study of Mus musculus with 4 samples.

Results

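Alpha retinal ganglion cells are large output neurons of the retina with thick, fast-conducting axons, and they carry osteopontin (Spp1) and heavy neurofilament (Nefh). The mouse retina holds ON and OFF forms that respond to light onset or offset, each with a transient and a sustained version. The ON transient form is described here through the 736 cells that the authors' deposited annotation calls 41_AlphaONT, which is every cell that carries that name out of 131379 retinal ganglion cells in 45 types. They came from 5 retinas, called 1 to 5 below, with 179, 230, 87, 132 and 108 of these cells. The other annotated alpha types are 43_AlphaONS (ON sustained), 42_AlphaOFFS (OFF sustained) and 45_AlphaOFFT (OFF transient). All 5 retinas were wild type, of the C57BL/6 strain, with no treatment and food and water at will, and the labels give neither age nor sex. They were cut parallel to the retinal surface into sections of 20 µm and imaged with Xenium, which decodes single transcripts in tissue as fluorescent puncta, on a custom panel of 300 genes. No group was treated, so the comparisons are between types and between places in the retina, with the retina as the replicate.

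Each 41_AlphaONT cell held 100 to 1350 puncta, with a median of 326.5, and the retinas gave 68581, 80286, 29283, 46759 and 44584 puncta in such cells. Levels below are puncta of a gene per 1000 puncta of all 300 genes in the summed cells of a type and retina, so they are shares of the panel and not amounts per cell. No source used here gives the method of type assignment, and the panel genes may have been used for it. Differences in gene level between types are therefore descriptions with no test. Whether each retina is from its own animal is not stated, and 2 of the 8 slides hold sections of 2 retinas each. The p-values measure the spread among these 5 retinas, except where the section was the block, which counts sections of the same retina as separate samples.

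Both markers stood above the mean of the other types, which is a description, since the type may have been called on them. Etv1, an ETS-family transcription factor, stood at 21.7, 20.2, 15.7, 24.5 and 20.1 per 1000 puncta in 41_AlphaONT in retinas 1 to 5, and at 1.16, 1.13, 0.916, 1.12 and 1.53 in 43_AlphaONS. The mean of the other 44 types was 0.989 per 1000, and 41_AlphaONT was the highest of all 45 types in every retina. The next highest was 45_AlphaOFFT with a mean of 13.6 per 1000. The sustained OFF type, 42_AlphaOFFS, came after it with 3.58 ± 0.43 per 1000, between the transient types and 43_AlphaONS. The log2 ratio of 41_AlphaONT to 43_AlphaONS averaged 4.12 ± 0.27 (SD, n = 5). Spp1, the secreted phosphoprotein used as the common alpha marker, was at 25.7, 26.8, 21.8, 28.6 and 24.4 per 1000 in 41_AlphaONT and at 42.9, 42.8, 42.2, 43.3 and 43.8 in 43_AlphaONS. All 5 values of 41_AlphaONT lay below all 5 of 43_AlphaONS and above the mean of the other 44 types, 5.09 per 1000. Spp1 in 41_AlphaONT ranked 5 among the 45 types and was the lowest of the 4 alpha types.

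**Figure D1:**
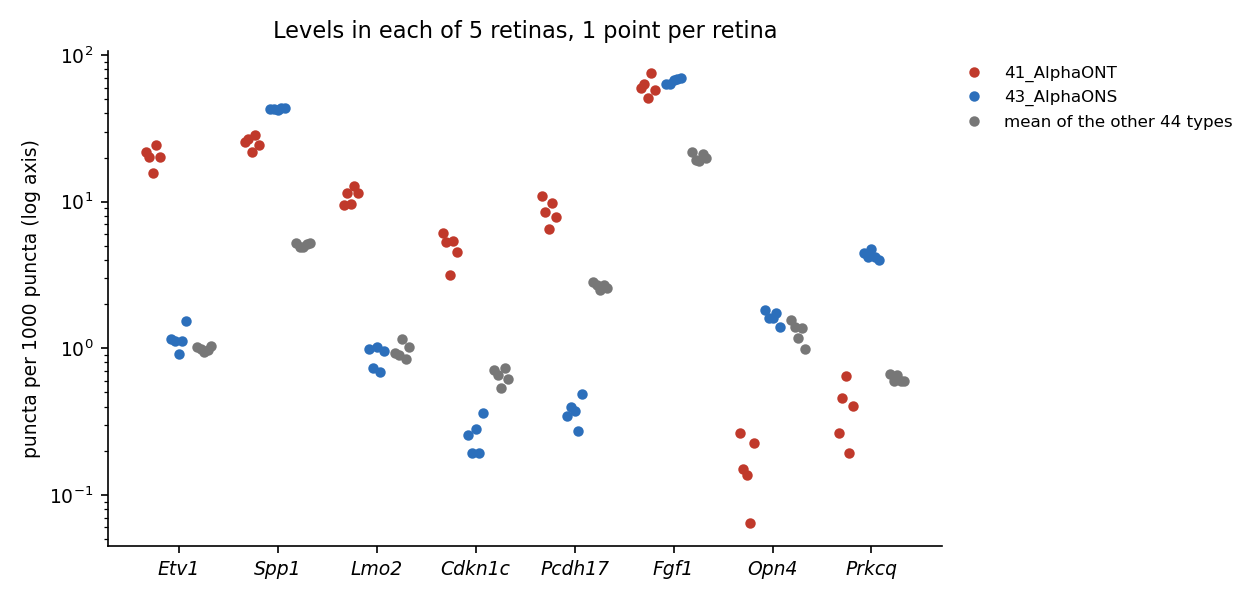
Puncta per 1000 puncta (log axis) of 8 genes in 41_AlphaONT, 43_AlphaONS and the mean of the other 44 types, with 1 point per retina. Etv1, Lmo2, Cdkn1c and Pcdh17 lie higher in all 5 retinas of 41_AlphaONT than in 43_AlphaONS, and Spp1, Opn4 and Prkcq lie lower.

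Of the 300 genes, 247 had at least 100 puncta in 41_AlphaONT or would have had them at the mean level of the other types. Of these, 11 were at least 2-fold above the mean of the other types in every retina (4.45%) and 25 were at least 2-fold below it (10.1%). Counted per cell and not per 1000 puncta, 12 were above and 16 below. The largest ratio after Etv1 belonged to Lmo2, a LIM-domain adaptor of transcription factor complexes. Lmo2 stood at 9.52, 11.5, 9.70, 12.8 and 11.5 per 1000 in 41_AlphaONT and at 0.987, 0.734, 1.02, 0.693 and 0.952 in 43_AlphaONS. The groups did not overlap, and of the other types only 44_Novel was higher, at 16.1 per 1000. The OFF alpha types had 0.387 (42_AlphaOFFS) and 0.397 (45_AlphaOFFT) per 1000, so Lmo2 set 41_AlphaONT apart from all 3 of its alpha relatives. Cdkn1c, the cyclin-dependent kinase inhibitor p57, was at 6.08, 5.29, 3.18, 5.43 and 4.55 per 1000 in 41_AlphaONT and at 0.255, 0.192, 0.283, 0.193 and 0.364 in 43_AlphaONS. It was second to 45_AlphaOFFT, at 6.73 per 1000, while 42_AlphaOFFS held an intermediate 1.36 ± 0.24 per 1000 and the type after 41_AlphaONT was 33_M1, at 4.71.

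The remaining 7 of the 11 genes covered adhesion, calcium handling and excitability. Pcdh17 (a protocadherin) averaged 8.70 ± 1.70 per 1000 in 41_AlphaONT (SD, n = 5), against 0.375 in 43_AlphaONS and 2.66 over the other types. Cbln2, a secreted synaptic organiser, averaged 5.75 ± 0.81 in 41_AlphaONT, against 0.456 in 43_AlphaONS and 1.52 over the other types. The calcium buffer parvalbumin (Pvalb) averaged 3.65 in 41_AlphaONT, 3.10 in 43_AlphaONS and 1.18 over the other types. Fgf1, a growth factor, averaged 61.3 in 41_AlphaONT and 66.5 in 43_AlphaONS, and 20.2 over the other types. Parvalbumin and Fgf1 were thus shared with the sustained type, while Pcdh17 and Cbln2 were not. Anxa2 (annexin A2, a calcium-dependent membrane-binding protein), Slc29a4 (a monoamine transporter) and Kcnb2 (a delayed-rectifier potassium channel) had mean log2 ratios over the other types of 1.65, 1.39 and 1.2. Kcnb2 was highest of all 45 types in 4 of the 5 retinas, with a mean of 9.75 per 1000 in 41_AlphaONT and 9.50 in the next type, 45_AlphaOFFT.

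Several of the 25 low genes are highest in other ganglion cell types. Opn4, the melanopsin photopigment of intrinsically photosensitive ganglion cells, was at 0.262, 0.149, 0.137, 0.064 and 0.224 per 1000 in 41_AlphaONT, 47 puncta in all, and at 1.81, 1.6, 1.61, 1.75 and 1.39 in 43_AlphaONS. The ranges did not overlap, and the mean log2 ratio to the other types was -3.00 ± 0.80. Then came Tbx20 (-2.87), a T-box factor highest in 07_Novel and then 40_M1dup, Penk (-2.83), the enkephalin precursor highest in 19_Novel, and Neurod2 (-2.67), a bHLH factor. Lxn (-2.31), Rprm (-2.09), Cd83 (-1.91) and Ebf3 (-1.87, a COE-family transcription factor) were low too. Isl2 (-1.98, a LIM-homeodomain factor) was at 0.629 per 1000 in 41_AlphaONT and 0.593 in 43_AlphaONS, but at 1.99 in 42_AlphaOFFS and 1.74 in 45_AlphaOFFT. Isl2 was in this way lower in both ON alpha types than in the OFF ones. Foxp2 (-1.95) and Ppp1r17 (-1.88), from the list for Foxp2 ganglion cells, and the POU factor Pou4f3 (-1.88) complete the 12 lowest.

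**Figure D2:**
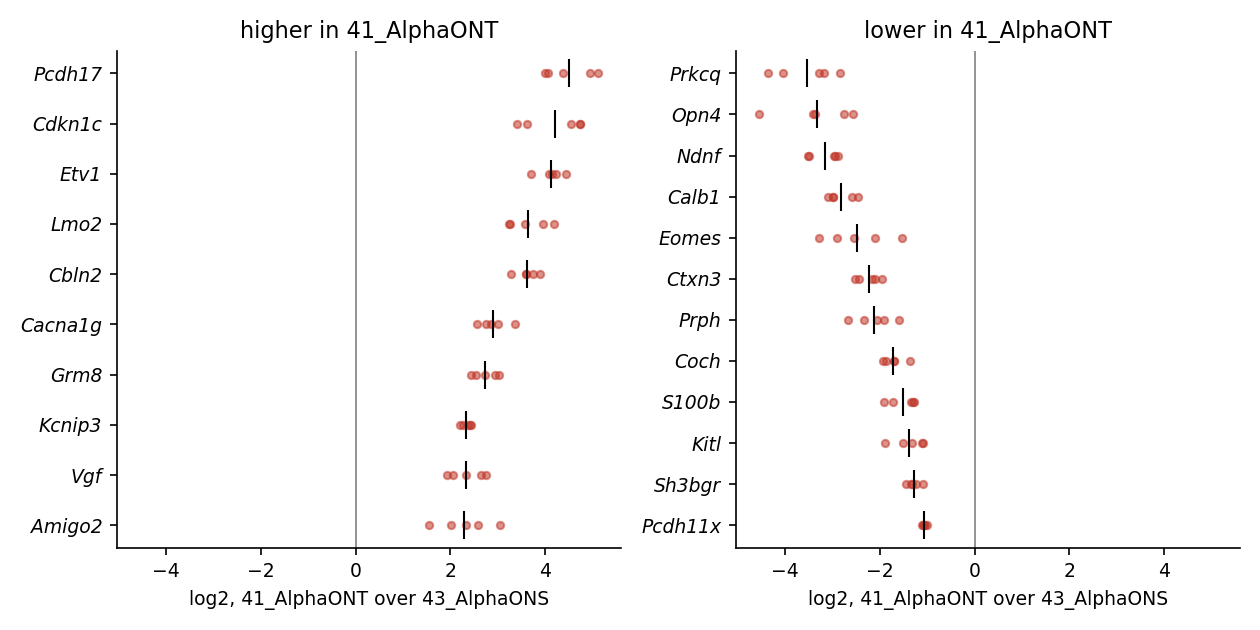
Mean log2 ratio (black bar) and the 5 retinas (points) of 41_AlphaONT over 43_AlphaONS for genes among the 12 with the largest ratio in each direction of those past 2-fold in every retina. Pcdh17 leads the higher genes at 4.50 and Prkcq the lower ones at -3.54.

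Set directly against 43_AlphaONS, 38 of 232 genes were at least 2-fold higher in 41_AlphaONT in every retina (16.4%) and 12 were lower (5.17%). Per cell the split was 29 higher and 22 lower, and the median log2 ratio of all 300 genes was 0.63 per 1000 puncta, so the split depends on the scale. The lower genes include Prkcq (a protein kinase C, -3.54), Opn4 (-3.33) and Eomes (Tbr2, a T-box factor required for melanopsin cells, -2.47), 3 of 4 genes of the melanopsin-cell list with enough puncta. Igf1, the remaining one, had a log2 ratio of -1.29 and did not pass. Prkcq was at 0.262, 0.461, 0.649, 0.192 and 0.404 per 1000 in 41_AlphaONT and at 4.45, 4.2, 4.78, 4.18 and 4.01 in 43_AlphaONS, which was the highest type for this gene. Also lower were Ndnf (a secreted neurotrophic factor, -3.16), the calcium buffers Calb1 (calbindin, -2.82) and S100b (-1.51), Ctxn3 (-2.24), the neurofilament-like Prph (peripherin, -2.12), Coch (cochlin, a secreted matrix protein, -1.72), Kitl (the ligand of the KIT receptor, -1.39), Sh3bgr (-1.29) and Pcdh11x (a protocadherin, -1.07).

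The 38 higher genes included ion channels and receptors. Cacna1g, a low-voltage-activated T-type calcium channel, averaged 3.25 ± 0.71 per 1000 in 41_AlphaONT and 0.433 ± 0.13 in 43_AlphaONS, a log2 ratio of 2.90. Its level was close to that of 42_AlphaOFFS (3.09) and below that of 45_AlphaOFFT (5.38), so 43_AlphaONS had the lowest level of the alpha types. The metabotropic glutamate receptor Grm8 (2.73), the potassium channel partner Kcnip3 (2.34), the secreted neuronal peptide precursor Vgf (2.34) and the adhesion protein Amigo2 (2.3) were also among the 12 largest, with Pcdh17, Cdkn1c, Etv1, Lmo2 and Cbln2. Over the lists, 3 of 9 sodium channel genes were higher and none lower, 4 of 31 potassium channel genes, 3 of 15 calcium channel genes, 4 of 11 glutamate receptor genes and 2 of 11 GABA and glycine receptor genes were higher, and none of these lists had a lower gene. These shares stand beside 38 higher and 12 lower of 232 over all genes measured.

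The same lists against the mean of the other types are read beside 11 higher and 25 lower of 247 over all genes. Of the 8 alpha-list genes on the panel 3 were higher (Etv1, Cdkn1c, Spp1) and none lower, with a median log2 ratio of 0.43 against -0.24 over all 300 genes. The other 5 were Coch (0.48), Scn4b (0.38), Igfbp2 (0.37), Nefh (0.30) and Kcnip2 (0.21), which did not pass. This list holds Spp1 and Etv1, the markers on which the type may have been called, so its count and median are descriptions. Opn4, a marker of ON sustained alpha cells, was counted in the melanopsin-cell list and not in this one, and it was lower (-3.00). Kcnip2 stood at 0.847 per 1000 in 41_AlphaONT, against its peak of 11.2 in 45_AlphaOFFT, and Igfbp2 at 0.846 in 41_AlphaONT, against its peak of 8.68 in 42_AlphaOFFS. Nefh averaged 23.0 per 1000 in 41_AlphaONT, against 36.8 in 43_AlphaONS and 18.7 over the other types. Of the 22 genes on the transcription factor list, which also holds the RNA-binding protein gene Rbpms, 1 was higher (Etv1) and 6 were lower. Tbx20 and Neurod2 were lowest and Tfap2a (0.32) next highest. Of 31 potassium channel genes Kcnb2 was higher and Kcnd2 (-1.67) lower, with Kcnab3 (0.92) and Kcnip4 (-0.82) next. No gene on the calcium channel list passed either way, from Cacng5 (-1.3) and Cacna1e (-1.05) to Cacng2 (0.37) and Cacna2d3 (0.48). The channel lists, here and above, go by gene name. They take in auxiliary subunits, Cacng genes whose proteins attach to AMPA receptors, and the non-coding RNA Kcnq1ot1. Of 9 sodium channel genes Scn3b (-1.51) alone was lower, with Scn7a at -1.10.

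Of the glutamate receptor genes Gria1 (-1.45) and Grik1 (-1.32) were lower, and Gria4 (0.37) and Grm8 (0.18) had the highest ratios. Of the inhibitory receptor genes Gabrg3 (-1.59) was lower, Gabra3 was at -1.37, and Glrb and Glra1 were at 0.04. Of the 6 neuropeptide genes on the panel, Penk alone had enough puncta to be counted, and it was lower. Sst (-1.13), Npy (0.81) and Vip (0.88) were under the minimum of 100 puncta. Of 9 adhesion genes Pcdh17 was higher and Pcdh8 (-1.34) lower, with Jam2 at -1.47 and Cdh8 at 0.23. Of the secreted and matrix genes Spp1 was higher and Mmp9 (-1.77) lower, with Tafa1 at -1.14 and Igfbp4 at 0.56. Calb1 (-0.92) and Necab1 (-0.32) were the lowest calcium buffers, and Pvalb and S100b (0.06) the highest.

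Markers of other retinal cells were measured in the same cells. Their counts stand beside 38 higher (16.4%) and 12 lower (5.17%) of 232 genes against 43_AlphaONS. The median log2 ratio of all 300 genes to 43_AlphaONS was 0.63. Against the other types, 11 of 247 genes were higher (4.45%) and 25 lower (10.1%). The 9 amacrine genes summed to 34.0 to 39.0 per 1000 in 41_AlphaONT over the retinas, 15.9 to 17.2 in 43_AlphaONS and 34.4 to 37.4 over the other types. None of the 8 measured amacrine genes passed against the other types (Chat 0.86, Gad1 0.45, Pax6 -0.19, Slc6a9 -0.40), and 4 were higher than in 43_AlphaONS (Chat, Gad1, Gad2 and Tfap2a, between 1.40 and 1.97). The part of surrounding amacrine RNA in the genes higher than in 43_AlphaONS was not tested. The 5 ganglion cell genes summed to 43.9 to 49.3 in 41_AlphaONT, 41.9 to 48.9 in 43_AlphaONS and 60.7 to 67.7 over the other types, and 1 of the 5 was lower than in the other types. It was Pou4f3 (-1.88), while Rbpms (-0.48), Slc17a6 (-0.47), Pou4f2 (-0.21) and Isl1 (-0.09) did not pass. The 8 bipolar genes summed to 2.85 to 6.22 in 41_AlphaONT against 1.71 to 2.13 in 43_AlphaONS and 3.84 to 5.68 over the other types. Of the 5 with enough puncta, 1 was lower than in the other types (Grik1, -1.32), while Prkca (-0.37), Otx2 (-0.16) and Trpm1 (-0.11) did not pass. The 3 rod genes summed to 2.19 to 9.70 in 41_AlphaONT against 1.68 to 3.32 in 43_AlphaONS. Over the other types Nrl (0.35), Gnat1 (0.34) and Gngt1 (-0.05) did not pass. They did not pass over 43_AlphaONS either (1.36, 1.27 and 0.57). Horizontal cell genes summed to 9.80 to 13 in 41_AlphaONT against 40.4 to 45.3 in 43_AlphaONS. Of these, Calb1 and Ndnf were lower in 41_AlphaONT than in 43_AlphaONS. Onecut1, Lhx1 and Onecut2 did not pass, at 0.98, 0.80 and 0.74 over the other types and 0.55, 1.33 and 0.25 over 43_AlphaONS. The 5 Müller glia genes summed to 3.70 to 6.69 in 41_AlphaONT against 2.83 to 4.56 in 43_AlphaONS. Over the other types their log2 ratios included 0.04 for Aqp4, 0.02 for Rlbp1 and -0.31 for Slc1a3 and Sox9. The 2 cone, 2 microglia and 2 vascular genes summed to 0.20 to 0.51, 0.07 to 0.65 and 0.15 to 2.31 per 1000 in 41_AlphaONT. In 43_AlphaONS they summed to 0.19 to 0.33, 0.03 to 0.19 and 0.19 to 0.36. Their log2 ratios over the other types were negative (Opn1mw -0.23, Opn1sw -0.24, Aif1 -1.22, Tmem119 -1.42, Cdh5 -0.18, Pdgfrb -1.15). Over 43_AlphaONS they were positive (0.29, 0.37, 0.91, 1.21, 1.16 and 0.19 in the same order). Over the other types the rod genes summed to 2.60 to 5.70, the horizontal cell genes to 12.5 to 13.5 and the Müller glia genes to 4.71 to 6.37. The cone, microglia and vascular genes summed there to 0.29 to 0.51, 0.32 to 0.58 and 0.63 to 0.86. No astrocyte marker was on the panel.

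Several types had a profile close to that of 41_AlphaONT, alpha types and others. Over the mean levels of the 300 genes, on the scale log2 of the level plus 0.01, Pearson's r was 0.944 with 37_Novel, 0.935 with 42_AlphaOFFS, 0.933 with 18_Novel, 0.928 with 45_AlphaOFFT and 0.903 with 43_AlphaONS. Within single retinas, r ran from 0.898 to 0.939 with 37_Novel and from 0.904 to 0.932 with 42_AlphaOFFS, so the order of these types is not settled. The lowest values, 0.778, were with 40_M1dup and 44_Novel. These correlations run across genes of one panel, which are not independent replicates, and the types share sections and depth.

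In single cells the markers were incomplete. Each cell was thinned to 100 puncta so that depth could not set detection. At that depth 58.0% ± 2.2 of 41_AlphaONT cells (SD, n = 5 retinas) held at least 1 punctum of both Spp1 and Etv1, against 10.2% ± 2.1 of 43_AlphaONS cells, and 61.8% ± 5.0 of 45_AlphaOFFT cells did too. In 35_Novel, the type with the lowest Etv1 share, 2.3% of cells held an Etv1 punctum, against 67.0% ± 1.0 in 41_AlphaONT, and median depths were 278.5 and 326.5 puncta. As deposited, Etv1 had a median of 5 puncta in 41_AlphaONT cells and 0 in 43_AlphaONS cells, yet 141 of the 736 held none. Lmo2 was seen in 47.5% ± 5.1 of thinned 41_AlphaONT cells, against 8.60% ± 1.6 of 43_AlphaONS cells, 2.97% of 45_AlphaOFFT cells and 1.61% of cells in the lowest type, 24_Novel (median depth 387 puncta). Opn4 was seen in 1.38% ± 0.59 of thinned 41_AlphaONT cells, near the 1.31% of 42_AlphaOFFS and 1.11% of 45_AlphaOFFT, against 15.3% ± 1.8 of 43_AlphaONS cells and 0.29% in the lowest type, 29_Novel (median depth 309 puncta).

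The cells with and without the leading genes differed in several other genes and in size. After thinning, 293 of the 736 cells held both Etv1 and Lmo2 and 189 held neither, which was 40.1% ± 1.8 and 25.6% ± 4.2 per retina. Of the other genes higher in the type, some followed this split and some did not. Anxa2 averaged 10.7 ± 1.9 per 1000 in cells with both and 2.31 ± 0.65 in cells with neither, Cdkn1c 6.68 ± 1.6 and 1.22 ± 0.55, Pcdh17 11.4 ± 1.6 and 3.96 ± 1.0, and Fgf1 74.9 ± 6.0 and 36 ± 7.1 (SD, n = 5 retinas). For these 4 genes the lowest retina of the cells with both lay above the highest retina of the cells with neither. Spp1 averaged 29.0 ± 1.9 and 18.7 ± 7.1 and the groups overlapped, and Pvalb ran the other way, at 3.28 ± 0.81 and 4.06 ± 0.59. Since the type may have been called on these genes, the levels are descriptions.

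Cell volume is not a gene count, but the cells compared were still chosen by their Etv1 and Lmo2 puncta. Median volume (unit not stated) averaged 809 ± 95.6 in cells with both genes and 587 ± 62.6 in cells with neither. Cells with only Etv1 (714 ± 141) and only Lmo2 (619 ± 57.5) lay between them on average. In retinas 1 to 5 it was 776, 856, 819, 670 and 927 in cells with both. In cells with neither it was 564, 592, 654, 494 and 630. The ratio was 1.38 and went the same way in 5 of 5 retinas, with p = 0.062 in a two-sided exact permutation test that flips the signs of the 5 log2 ratios, the smallest that 5 retinas allow. Puncta per cell were 1.52 times as many in cells with both (408 ± 56.3 against 266 ± 22.0, p = 0.062 in the same exact test, 5 of 5 retinas), and detection was scored at equal depth. As deposited, 105 of the 736 cells had not a single punctum of either gene, and their share was 16.2, 11.7, 23.0, 11.4 and 13% in retinas 1 to 5, highest in retina 3. Without Etv1 and Lmo2 the summed profile of these 105 cells was still most like 41_AlphaONT (r = 0.935 over 298 genes), but 32_F_Novel was close at 0.923, while for the 431 cells with both the values were 0.990 and, for the next type, 37_Novel, 0.945. These cells are among those averaged in the 41_AlphaONT profile, which raises both values.

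**Figure D3:**
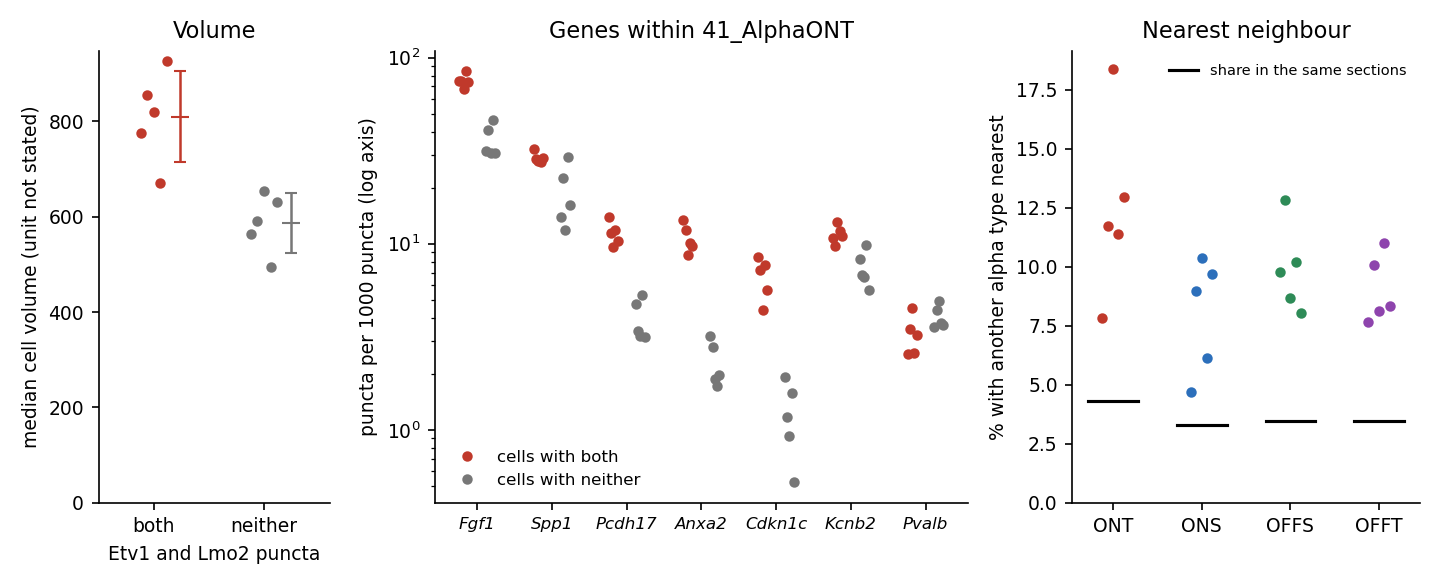
Left, median volume per retina of 41_AlphaONT cells with both or neither of Etv1 and Lmo2 after thinning to 100 puncta, with mean and SD; middle, levels of 7 genes in the same cells (log axis); right, percent of cells of each alpha type whose nearest ganglion cell is of another alpha type, 1 point per retina, with the share of those types in the same sections as a black line. Cells with both genes are larger, and every alpha point lies above its line. Anxa2, Cdkn1c, Pcdh17 and Fgf1 do not overlap, while Spp1, Kcnb2 and Pvalb do.

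41_AlphaONT cells were rare and of intermediate size. They made up 0.510, 0.560, 0.663, 0.476 and 0.752% of ganglion cells in retinas 1 to 5, 0.592% ± 0.114 on average, place 43 of 45 types. The other alpha types were each more than 2-fold as frequent, with 1.43% ± 0.18 for 43_AlphaONS, 1.33% ± 0.12 for 42_AlphaOFFS and 1.37% ± 0.16 for 45_AlphaOFFT. Median volume was 663, 682, 728, 638 and 759 in 41_AlphaONT and 834, 903, 1013, 791 and 1035 in 43_AlphaONS. 41_AlphaONT was the smaller in each retina. The ratio was 0.761 to 43_AlphaONS, 0.792 to 42_AlphaOFFS, 0.766 to 45_AlphaOFFT and 1.16 to all other ganglion cells pooled. Each of the 4 ratios went 1 way in 5 of 5 retinas, with p = 0.062 before and after adjustment over the 4 in the exact sign-flip test, the smallest possible.

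The 3 other alpha types were the 3 largest of the 45, and 41_AlphaONT was the tenth. Median puncta per cell were 340, 314, 290, 340 and 370.5 in 41_AlphaONT and 398, 421, 413, 408.5 and 447 in 43_AlphaONS, a ratio of 0.790. The cells of 41_AlphaONT were also less flat than those of 43_AlphaONS, with a deposited flatness of 1.56 ± 0.09 against 1.88 ± 0.18, lower in 5 of 5 retinas (exact p = 0.062, 0.083 adjusted over the 4 comparisons). The 293 cells that held both Etv1 and Lmo2, the larger cells of the type, had ratios to 43_AlphaONS of 0.884 in volume and 0.970 in puncta per cell. Choosing larger cells narrows both gaps, so these ratios are a description.

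**Figure D4:**
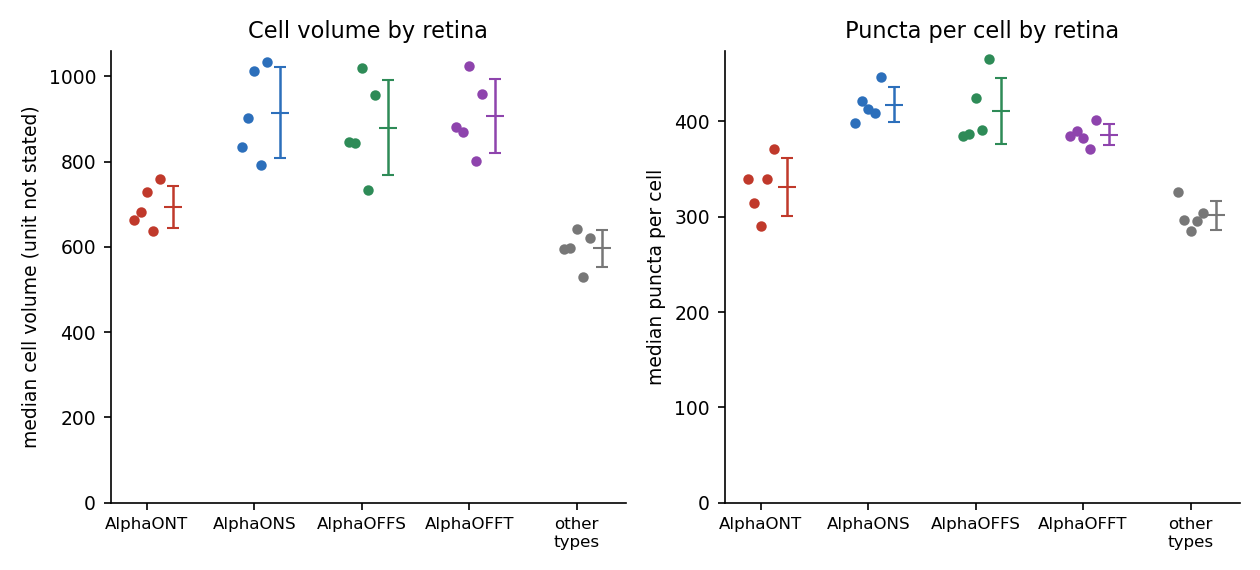
Median cell volume (left, unit not stated) and median puncta per cell (right) by type, with 1 point per retina and the mean and SD beside them. 41_AlphaONT averages 694 in volume, below the 880 to 915 of the other alpha types and above the 597 of all other ganglion cells.

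Position was given by the authors as coordinates scaled to a circle, with no anatomical direction for either axis, and position took no part in the gene readout. Beyond a scaled radius of 0.5, 41_AlphaONT made up 0.568, 0.635, 0.535, 0.549 and 1.02% of ganglion cells, against 0.323, 0.422, 0.782, 0.332 and 0.531% inside it. The share was higher in the periphery in 4 of 5 retinas, and retina 3 ran the other way. edgeR's quasi-likelihood test on the cell counts with the retina as a block gave a log2 ratio of 0.54 ± 0.17 (SE) and an adjusted p of 0.0149, one of 19 types called (42.2% of 45). The adjusted p was 0.0797 without retina 1 and 0.114 without retina 4, and the exact sign-flip test on the 5 ratios gave 0.125. A called radial change was thus common among types, and the alpha types shared its direction: the log2 ratios were 0.44 in 43_AlphaONS, 0.54 in 42_AlphaOFFS and 0.25 in 45_AlphaOFFT. In rings of 0.25 of the radius, the share averaged 0.376, 0.510, 0.648 and 0.594% outward, so it did not climb further in the outermost ring.

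Along X the share was 0.557, 0.696, 0.782, 0.559 and 1.03% on the high side and 0.456, 0.385, 0.580, 0.385 and 0.496% on the low side. It was higher on the high side in 5 of 5 retinas, with a log2 ratio of 0.63 ± 0.15 (SE) and an adjusted p of 0.0176 in edgeR, among 13 of 45 types called (28.9%). Without retina 2 the adjusted p was 0.0560 and without retina 4 it was 0.0608. Along Y the share was 0.718, 0.761, 0.424, 0.730 and 0.865% on the high side and 0.285, 0.407, 0.962, 0.292 and 0.573% on the low side. The high side held more in 4 retinas and less in retina 3, and the log2 ratio of 0.66 ± 0.37 had an adjusted p of 0.256 in edgeR, which called 0 of 45 types along Y (0%), with 16 at an unadjusted p under 0.05. With the section in place of the retina as the block, which counts sections of one retina as separate samples, the ratio was 0.79 with an adjusted p of 0.00185, and 18 of the 45 types were called. Without retina 3 the log2 ratio was 1.05 with an adjusted p of 0.0361. Retina 3 was also the retina with the fewest 41_AlphaONT cells, the largest share of cells with neither Etv1 nor Lmo2 and the lowest Etv1 level of the 5, and the part of these in its opposite direction was not tested.

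The corner high in both X and Y held 0.814% ± 0.25 and the corner low in both held 0.347% ± 0.22. The ratios along the 3 axes did not differ from those of 43_AlphaONS beyond the spread: the difference of log2 ratios was 0.10 ± 0.34 for the radial axis (SD, n = 5, exact p = 0.5), -0.25 ± 0.27 along X (exact p = 0.188) and 0.26 ± 0.98 along Y (exact p = 0.625). Over all 9 such differences, against the 3 other alpha types on 3 axes, the smallest exact p was 0.062, for X against 45_AlphaOFFT (0.36 ± 0.32, 5 of 5 retinas, 0.562 adjusted). Using only the 631 cells with a punctum of Etv1 or Lmo2, the share was higher in the periphery in 4 of 5 retinas, on the high X side in 5 of 5 and on the high Y side in 4 of 5. Within 41_AlphaONT neither volume nor puncta per cell went 1 way in 5 of 5 retinas between the sides of any axis (exact sign-flip p of 0.25 or more). The smallest adjusted p was 0.750 over 12 such tests, which took in 43_AlphaONS. With 5 retinas this test cannot give a p below 0.062, so no difference could have passed 0.05.

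**Figure D5:**
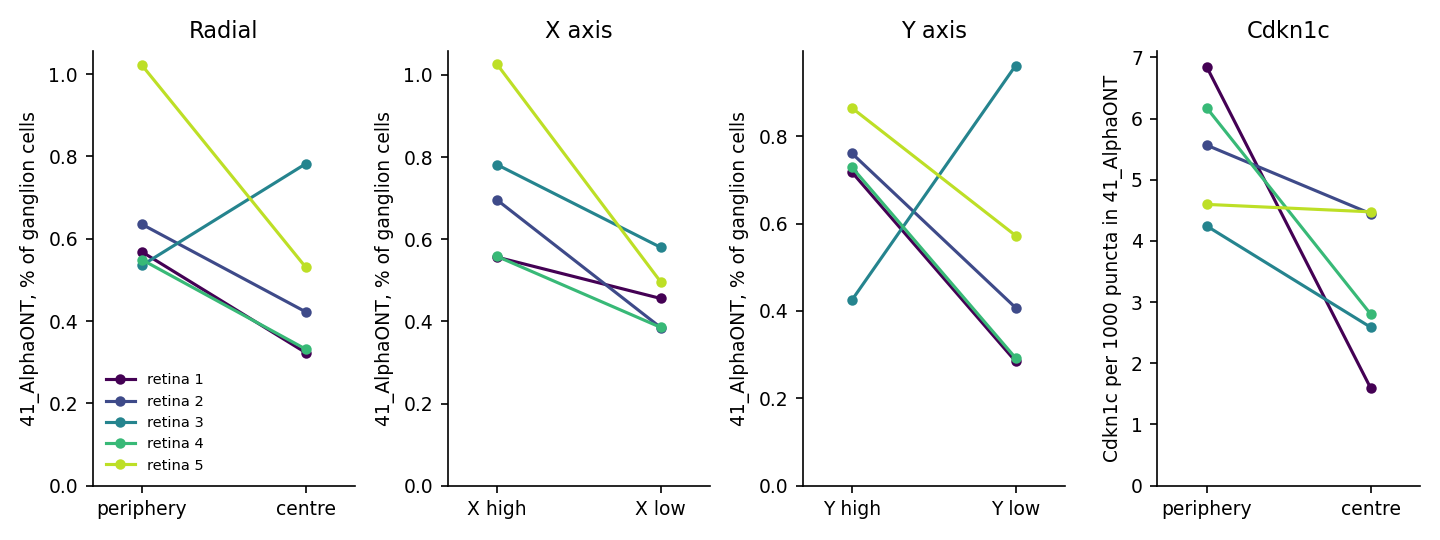
Share of 41_AlphaONT among ganglion cells on either side of the radial, X and Y axes (first 3 panels) and Cdkn1c per 1000 puncta in 41_AlphaONT by radius (last panel), 1 line per retina. All lines fall to the right along X and for Cdkn1c, and retina 3 runs opposite along the radius and Y.

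Within the type, 1 of 197 genes tested differed between periphery and centre (0.508%). It was Cdkn1c, at 6.85, 5.57, 4.25, 6.18 and 4.60 per 1000 in the periphery and 1.6, 4.45, 2.59, 2.81 and 4.48 in the centre. It was higher in the periphery in 5 of 5 retinas, though by little in retina 5. edgeR gave a log2 ratio of 0.77 ± 0.16 (SE) with an adjusted p of 0.00200, and DESeq2 gave 0.83 with an adjusted p of 0.130. The edgeR call was lost without retina 1 (0.51, adjusted p = 0.145), without retina 3 (0.78, adjusted p = 0.155) and without retina 4 (0.71, adjusted p = 0.0642). In 43_AlphaONS, where Cdkn1c stood at only 0.246 and 0.252 per 1000 in periphery and centre, the log2 ratio was 0.004 ± 0.29. The difference between the types, 0.79 ± 0.38, had an unadjusted p of 0.0416 and an adjusted p of 0.522 in edgeR, so it did not pass. The share of cells with neither Etv1 nor Lmo2, as deposited, averaged 15.7% ± 7.8 in the periphery and 16.6% ± 9.4 in the centre. These means hide opposite differences. In retinas 1 to 5 the share was 13.8, 10.7, 29.4, 13.9 and 10.6% in the periphery. In the centre it was 29.6, 14.8, 18.9, 3.23 and 16.7%. The part of this cell mix in the radial Cdkn1c change was not tested.

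Etv1 and Spp1 had radial log2 ratios of 0.32 ± 0.12 and 0.31 ± 0.11, both with an adjusted p of 0.167 in edgeR. Of 5 further genes picked from earlier results on these retinas, Fxyd6 (a regulator of the sodium pump, 0.35), Gngt1 (rod transducin gamma, 0.41), Spc25 (a kinetochore protein, -0.16), Sparc (a secreted matrix protein, -0.14) and Pcdh8 (a protocadherin, -0.24) did not pass within 41_AlphaONT, with adjusted p of 0.412 or more. Along X 0 of 219 genes were called by edgeR (0%, 21 at an unadjusted p under 0.05) and 0 by DESeq2 (5 unadjusted). Along Y it was 0 of 220 (0%, 11 unadjusted in edgeR), and 0 by DESeq2 (6 unadjusted). Cdkn1c had a log2 ratio of 0.62 along Y with an adjusted p of 0.329. The radial change differed between 41_AlphaONT and 43_AlphaONS for 0 of 259 genes in edgeR (0%, 24 unadjusted) and 0 in DESeq2 (16 unadjusted). These tests rest on 27 to 169 cells per radial side and retina.

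Alpha cells of different types lay next to one another more often than their share of the sections. The nearest ganglion cell of a 41_AlphaONT cell was of another alpha type in 7.82, 11.7, 18.4, 11.4 and 13% of cells in retinas 1 to 5 (86 of 736 cells). Those 3 types made up 4.30% ± 0.44 of ganglion cells in the same sections, and the neighbour share was above the section share in 5 of 5 retinas, 2.90-fold on average (exact sign-flip p = 0.062, the smallest possible). Among the next 50 nearest cells the same types made up 5.30% ± 0.54, which leaves a ratio of 2.35 (5 of 5 retinas, exact p = 0.062). The neighbours were spread over 43_AlphaONS (28 pairs), 42_AlphaOFFS (28) and 45_AlphaOFFT (30), while another 41_AlphaONT cell was nearest for 4 cells.

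The same held for the other alpha types, with 2.11-fold for 43_AlphaONS, 2.39-fold for 42_AlphaOFFS and 2.36-fold for 45_AlphaOFFT over the next 50 cells. The 41 types outside the alpha group had ratios between 0.189 and 2.10 to their next 50 cells, with a median of 0.661. Of these 41, 3 also stood above their next 50 cells in 5 of 5 retinas, 31_M2 at 2.10, 32_F_Novel at 1.97 and 37_Novel at 1.96 (each exact p = 0.062), so such neighbours were not limited to alpha types. The types next in volume to the 3 largest, 39_Novel and 34_Novel, had ratios of 0.850 and 0.760. A nearest alpha cell lay 9.63 from the 41_AlphaONT cell and any other nearest cell 10.3 (median, unit not stated), and the part of transcripts assigned to the wrong neighbouring cell was not tested.

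Whether spacing within the type differed from that of 43_AlphaONS depended on how it was measured. In 22 sections with at least 10 cells of each type (675 of the 736 cells), 41_AlphaONT cells lay 203 ± 77.7 from the nearest of their kind and 43_AlphaONS cells 115 ± 15.5 (SD, n = 5). Scaled by the square root of the number of cells of the type in the section, the log2 ratio was 0.18, 0.22, -0.20, 0.51 and -0.01 in retinas 1 to 5, with a mean of 0.14 ± 0.27 and an exact p of 0.375. With at least 5 cells per section, this spacing index of 41_AlphaONT over 43_AlphaONS was 0.29 ± 0.21 (exact p = 0.062, the smallest possible, 5 of 5 retinas), and on median distances it was -0.0595 (exact p = 0.750). The regularity index, the mean distance over its SD, was 1.13 ± 0.10 in 41_AlphaONT and 1.32 ± 0.21 in 43_AlphaONS (exact p = 0.188).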

How the data were processed

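The deposited table holds counts of decoded puncta for 300 genes in each cell, with the type, retina, slide, section, volume and position of the cell, per the file headers. The scaled positions along X and Y are scores deposited by the authors, with no anatomical direction, and volumes and distances carry no unit. Segmentation, cell filters and type assignment are not given in the sources used here. The 4 GEO samples are pairs of slides that no label ties to a retina, so the retina column of the table gave the 5 replicates, and it pairs the sides and types compared. Totals per retina were 4048481 to 12879454 puncta.

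Members and gene lists were chosen with earlier results of these data known, and the cell classes by Etv1 and Lmo2, the neighbours, the rings and corners, the differences between axes and the likeness between types were chosen after seeing the data. Levels are counts per 1000 summed puncta, with 0.5 puncta added before log2 ratios. A gene was counted as different at 2-fold or more in the same direction in all 5 retinas, with a minimum of 100 puncta measured or expected. Detection was scored after thinning each cell to 100 puncta. Named genes are the markers and alpha list, the 12 largest ratios in each direction against the other types and against 43_AlphaONS, genes called along an axis, 5 genes of earlier interest, and the 2 highest and 2 lowest of each list. Counts summed per retina and side (at least 20 cells, split at radius 0.5 or at 0 on X and Y) were fitted with edgeR 4.0.16 quasi-likelihood (R 4.3.3, TMM, filterByExpr, retina as a block, Benjamini-Hochberg, threshold 0.05), and DESeq2 1.42.0 was an alternative. Cell counts per type were fitted in the same way over 45 types. Volume, puncta per cell, spacing (sections with at least 10 cells of each type) and neighbours (nearest cell in the same section) were compared with exact two-sided sign-flip permutation tests over retinas. Other steps ran in Python 3.11.15 (pandas 2.3.3, scipy 1.17.1, numpy 2.4.6), with matplotlib 3.10.9 for the plots, and the fits were tested on simulated data. Alternatives covered the fold, the minimum, the scale, the block, the split, the scaling and each retina left out. A few panel genes, some of them picked by the naming rule, are not reported here by name.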

Additional observations from a re-analysis of the deposited data

Results flagged for a closer look

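Of 144 sets of 5 retina values, 2 had a retina whose gap to its nearest neighbour exceeded Dixon's 95% limit of 0.71 of the range, where chance gives about 1 in 20. Igfbp4 in 41_AlphaONT was high in retina 5, at 1.3 per 1000 puncta with the nearest at 0.598. The share of 41_AlphaONT in the periphery was high in retina 5, at 1.02% with the nearest at 0.635%.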

How the results depend on the processing

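Of 152 alternatives for the study's comparisons, 128 were rated the same as the main setting, but this count is not a measure of robustness. The exact sign-flip test with 5 retinas or fewer cannot give a p below 0.062, which is above the threshold. Alternatives for volume, puncta per cell and spacing could therefore change direction but could not pass. The share of the type among ganglion cells and the numbers of genes had no p-value and were rated on the value alone. The log2 ratio for the radial share of 41_AlphaONT was 0.45 with no replicate block (adjusted p = 0.180) and 0.51 in the exact sign-flip permutation test (p = 0.125), and leaving out a retina gave 0.45 to 0.74. For the X share of 41_AlphaONT, leaving out a retina gave 0.55 to 0.73. For the Y share of 41_AlphaONT, the section as a block gave 0.79 in edgeR (adjusted p = 0.00185, 18 of 45 types called against 0). That block counts sections of the same retina as separate samples. Leaving out a retina gave 0.48 to 1.05, with the highest without retina 3. At 1.5-fold, 66 genes differed from the other types and 102 from 43_AlphaONS, against 36 and 50 at 2-fold. Per cell, 28 differed from the other types (27 shared) and 51 from 43_AlphaONS (41 shared). Genes called along the radius numbered 0 with DESeq2, 0 with no replicate block, 2 with no filter and 0 to 3 with a retina left out. Along X they numbered 2 with no filter and 0 to 1 with a retina left out, and along Y 0 to 3 with a retina left out. Without the block Cdkn1c had a radial log2 ratio of 0.79 (adjusted p = 0.516). The spacing index of 41_AlphaONT over 43_AlphaONS turned to -0.0595 on median distances (exact p = 0.750), and with 5 cells per section it was 0.29 (exact p = 0.062). The share of 41_AlphaONT cells with Spp1 and Etv1 was 74.7% as deposited and 34.9% at 2 puncta or more. Except where the construction shows it (a looser fold, fewer retinas, unthinned cells), the cause was not tested. For named genes, 732 of 776 alternatives kept the call and none reversed, but this count is not a measure of robustness either. Most of these genes were named for passing 2-fold in all 5 retinas. Such a gene keeps its call at 1.5-fold, with no minimum or with a retina left out, save through the minimum of 100 puncta.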
